A study of Homo sapiens with 12 samples.

Results

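The FASTK family comprises 6 nuclear genes whose proteins act on RNA inside the mitochondrion: FASTK, FASTKD1, FASTKD2, FASTKD3, FASTKD5 and TBRG4, the last also named FASTKD4. They were examined together with 2 mitochondrially encoded transcripts, MT-RNR2 (the 16S ribosomal RNA) and MT-ND6 (the mRNA of a complex I subunit), which gave 8 of the 58735 genes in the count tables. The 8 genes were chosen by their measured values in the contrast of knockout against wild type in the non-directional libraries, in which FASTKD2 was nearly absent from the knockout. Their values in that contrast are therefore a description and carry no p-value. The directional libraries did not enter the choice, and the genes were tested there. Directional counts had the pattern of reads from the strand opposite to each gene, so those tests do not repeat the same measurement.

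The cells were HAP1, a human line with close to one set of chromosomes that originates from a chronic myelogenous leukemia, sequenced as the wild type and as its SETDB1 knockout derivative. Both genotypes were grown in IMDM with fetal bovine serum and penicillin/streptomycin, received no other agent, and differed by label in the SETDB1 genotype alone. Total RNA of each genotype was made into 3 libraries with a non-directional kit (NEBNext Ultra II RNA) and 3 with a directional kit (NEBNext Ultra II Directional RNA), 12 libraries in all. The titles label the 3 libraries of each genotype and kit as biological replicates. Beyond that label, whether replicates came from separate cultures, and whether the knockout was 1 clone, is not given in the sources used here. The spread between libraries may therefore be technical. Other differences between the 2 lines and the loss of SETDB1 cannot be told apart.

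SETDB1 encodes a histone H3 lysine 9 methyltransferase that silences chromatin. The 3 non-directional wild-type libraries held 651, 543 and 519 of its counts and the 3 knockout libraries 118, 106 and 118, so the groups were far apart. The mean fell from 60.1 ± 4.3 to 11.5 ± 0.64 counts per 1000000 gene counts (CPM; mean ± SD of 3 libraries). The log2 fold change was -2.39 with an SE of 0.079 (edgeR quasi-likelihood test, adjusted p = 7.0e-43). In the directional libraries 12, 17 and 7 against 6, 4 and 11 counts were listed at SETDB1 (log2 fold change -0.71, edgeR adjusted p = 0.257). Directional counts had the pattern of the opposite strand, on which CERS2 overlaps SETDB1, so these cannot be read as SETDB1 RNA. A non-directional library held 8921959 to 10199215 gene counts and a directional one only 532021 to 676691, which makes directional values much less precise. Wild-type replicate 2 of the non-directional kit stood apart from replicates 1 and 3 (chi-square per degree of freedom 1.82 and 2.0, against 1.03 between replicates 1 and 3). Without it the log2 fold changes below were -7.61 for FASTKD2, -0.83 for MT-RNR2 and -0.35 for MT-ND6, and those of the other family genes kept their sign. Among 8 haematopoietic markers 6 were at 4 counts or fewer in every library, PTPRC, SPI1 and CD33 included, and the list summed to 35.0 to 36.1 CPM in wild-type and 18.8 to 21.2 CPM in knockout libraries. The 8 epithelial and fibroblast markers summed to 384.3 to 411.6 and 446.9 to 459.8 CPM. Among them EPCAM, an epithelial adhesion protein, rose from 3.75 ± 0.99 to 39.6 CPM (log2 fold change 3.40; adjusted p = 1.3e-42, edgeR). KRT8 rose by 0.47 (adjusted p = 4.3e-15, edgeR), and KRT18 (-0.10), VIM (-0.05) and COL1A1 (0.16) did not pass the test. CDH1, also an epithelial adhesion protein, had 8, 12 and 11 counts against 3, 8 and 1. CDH1, COL1A2 and PDGFRB were too low to be tested, and the last pair had 0 knockout counts. TAL1, a haematopoietic transcription factor, fell from 16.1 to 3.23 CPM (log2 fold change -2.32; adjusted p = 1.6e-25, edgeR), and KIT did not pass the test (log2 fold change -0.19; adjusted p = 0.075, edgeR). HAP1 cells thus carried few of the markers of their labelled leukemic origin, and the part of these shifts in the results below was not tested.

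As background, mitochondrial DNA is transcribed from both strands into long precursors that are cut into rRNAs, mRNAs and tRNAs, and FASTK family proteins, which share a C-terminal RAP domain, govern how single transcripts are cut out, kept or removed. FASTKD2 binds the 16S rRNA and the ND6 mRNA and is needed to assemble the large subunit of the mitochondrial ribosome, and loss of its function in people causes a mitochondrial encephalomyopathy. A mitochondrial form of FASTK is needed for the ND6 mRNA, FASTKD1 limits the ND3 mRNA, FASTKD5 processes precursors that are not bounded by tRNAs, TBRG4 stabilises several mRNAs, and FASTKD3 influences the levels of mitochondrial mRNAs and respiration.

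The start region of FASTKD2 is shown because FASTKD2 carries the largest difference of the family and because the start region of a second gene overlaps the same stretch. On GRCh38, FASTKD2 (ENSG00000118246) lies on the plus strand of chromosome 2 from 206765357 to 206792509. The sequence below runs from 250 bases before to 50 after its RefSeq start at 206765606 (RefSeq, GRCh38.p14, chr2:206765356-206765655, plus strand, 5′ to 3′), with each CpG dinucleotide, the unit of DNA methylation, in capitals.
FASTKD2 promoter: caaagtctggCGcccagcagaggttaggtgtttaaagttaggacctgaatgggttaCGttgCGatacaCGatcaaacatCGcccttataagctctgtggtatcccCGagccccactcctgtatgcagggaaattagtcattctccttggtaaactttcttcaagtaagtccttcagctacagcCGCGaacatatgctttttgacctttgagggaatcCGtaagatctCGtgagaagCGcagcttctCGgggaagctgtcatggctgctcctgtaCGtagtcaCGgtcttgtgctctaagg
The window held 14 CpGs, which equals the median of 35116 RefSeq promoters, and 49.7% of them held fewer. FASTKD1 also held 14, while FASTK and FASTKD3 held 34 each and TBRG4 held 31. 5 of the 6 family genes matched a RefSeq promoter.

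MDH1B, a gene related to malate dehydrogenases, starts on the opposite strand only 278 bases from the FASTKD2 start, at 206765328, and the promoter windows of the pair share 223 bases (206765356 to 206765578). Their GENCODE models overlap by 191 bases, so reads of a non-directional library cannot be split by strand there. Motifs were searched on both strands as exact letters: GCGCATGCG for NRF1, CCGGAAG for ETS factors, AAGATGGCG for YY1 and GGGCGG for SP1, none of which contains another. They occurred in 1.92%, 10.3%, 1.75% and 45.0% of all promoters. None of these letters was in the FASTKD2, FASTKD1 or MDH1B window, whereas FASTK had the YY1 and SP1 letters, FASTKD3 the SP1 letters, and TBRG4 the ETS and SP1 letters.

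FASTKD2 was nearly lost in the knockout. The 3 non-directional wild-type libraries held 882, 748 and 831 of its counts and the 3 knockout libraries 3, 5 and 5, so every knockout library was at or just above the 3 counts that the depth can show. The mean was 86.5 ± 2.2 CPM against 0.435 ± 0.11 CPM (SD, n = 3 each). Pooled over libraries, 13 counts stood against 2461, which placed the knockout at 0.504% of the wild-type level (95% exact interval 0.268% to 0.863%, counting error only), 198.4-fold lower. The fitted log2 fold change was -7.59 (SE 0.14), the 18th lowest of the 13778 genes tested. The directional wild-type libraries held 4, 1 and 5 counts of FASTKD2 and the knockout libraries 0, 0 and 0. These were too few to pass the filter on low counts, and 0 counts there allow up to 4.79 to 5.48 CPM.

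The opposite-strand partner MDH1B, named after its values were seen, had 6, 6 and 8 counts in the non-directional and 10, 6 and 3 in the directional wild-type libraries. It had 0 counts in all 6 knockout libraries, of either kit. The gene models overlap and directional counts had the pattern of the opposite strand. The directional counts at MDH1B therefore cannot be told apart from reads of FASTKD2. MDH1B was too low to be tested in either kit.

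The other family members moved far less. FASTK (ENSG00000164896; chr7, 151076593 to 151080866, minus strand) had 709, 615 and 602 wild-type counts against 541, 555 and 521 knockout counts. Its mean was 67.7 ± 3.0 CPM against 54.3 ± 2.8 CPM, a log2 fold change of -0.32 (SE 0.054), and the groups did not overlap in CPM.

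FASTKD1 (ENSG00000138399; chr2, 169529749 to 169573875, minus strand) lay in the other direction, with 848, 716 and 802 counts against 979, 1043 and 1022. Its mean was 83.1 ± 2.4 CPM against 102.1 ± 3.4 CPM (log2 fold change 0.30, SE 0.045). All 3 knockout libraries were above all 3 wild-type libraries. FASTKD5 (ENSG00000215251; chr20, 3146519 to 3159897, minus strand) had 871, 731 and 787 counts against 914, 936 and 948. This was a smaller step upward, from 83.9 ± 1.4 to 93.9 ± 1.1 CPM (log2 fold change 0.16, SE 0.045), again without overlap. FASTKD5 shares exon sequence with UBOX5 on the same strand, so its count is uncertain to that extent.

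FASTKD3 and TBRG4 overlapped between genotypes. FASTKD3 (ENSG00000124279; chr5, 7859159 to 7869037, minus strand), which overlaps MTRR on the opposite strand, had 251, 199 and 232 counts against 214, 247 and 218 (log2 fold change -0.07, SE 0.082). Its means were 23.9 ± 1.3 and 22.8 ± 2.0 CPM. TBRG4 (ENSG00000136270; chr7, 45100100 to 45112047, minus strand), which overlaps SNORA5B on the same strand, had 2211, 2116 and 2064 against 2234, 2287 and 2378 counts. Its mean was 225.2 ± 12 and 231.4 ± 2.9 CPM (log2 fold change 0.04, SE 0.034). At an adjusted p threshold of 0.05, 2 of the 6 family genes passed as higher in the knockout (FASTKD1 and FASTKD5) and 2 as lower (FASTK and FASTKD2), in a comparison in which 25.5% of the 13778 genes tested were called higher and 25.9% lower (51.5% in all). Because this contrast chose the genes, nothing is read from that count.

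**Figure D1:**
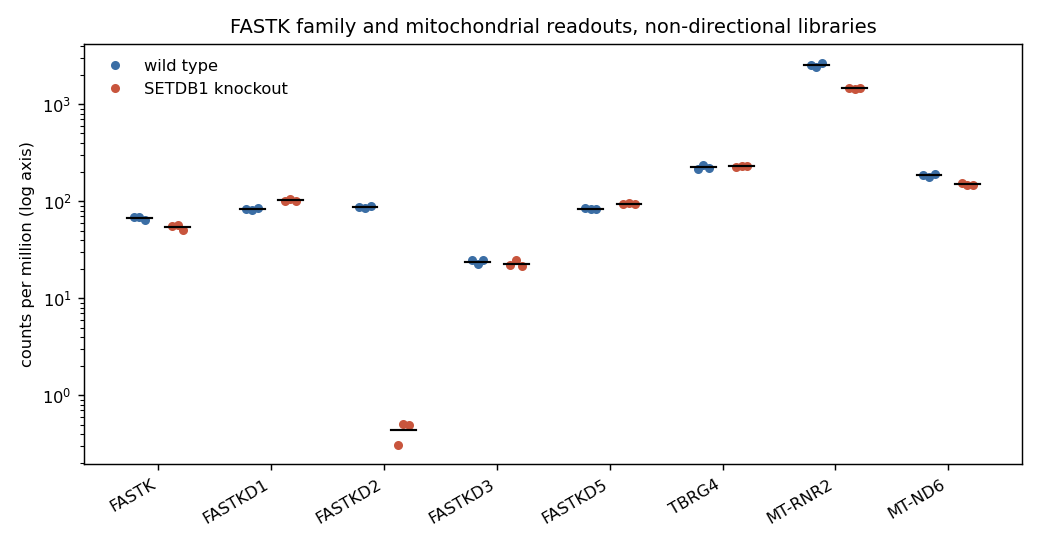
Level of the 6 FASTK family genes and of MT-RNR2 and MT-ND6 in each non-directional library, in CPM on a log axis; points are libraries (3 wild type in blue, 3 SETDB1 knockout in red) and black lines are group means. FASTKD2 drops from 86.5 to 0.435 CPM, MT-RNR2 from 2555 to 1462, while FASTKD3 and TBRG4 overlap.

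Levels were then compared between genes per length of exon (RPKM, reads per kilobase of exon and 1000000 gene counts). In the wild type the order was TBRG4 at 38.8 ± 2.0 RPKM, FASTKD5 at 29.2 ± 0.50, FASTKD1 at 18.7 ± 0.55, FASTK at 17.8 ± 0.78, FASTKD2 at 14.2 ± 0.36 and FASTKD3 at 8.38 ± 0.45 (SD, n = 3 each). FASTKD1 and FASTK, at 18.1 to 19.2 and 16.9 to 18.3 RPKM, overlapped between libraries, and the other neighbours in this order did not. In the knockout the order of the 4 highest was the same, with TBRG4 at 39.9, FASTKD5 at 32.7, FASTKD1 at 22.9 and FASTK at 14.3 RPKM, and FASTKD1 and FASTK no longer overlapped. FASTKD3 followed at 7.98 RPKM, and FASTKD2 came last at 0.0716. Summed over the family, the level was 127.1 ± 0.72 RPKM against 117.8 ± 2.5 RPKM.

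MT-RNR2 (ENSG00000210082; mitochondrial genome, 1671 to 3229, plus strand) is the RNA that FASTKD2 binds and the core of the mitoribosome large subunit. It had 26087, 21741 and 24903 wild-type counts against 14365, 14238 and 14998 knockout counts. The groups were well separated, with means of 2555 ± 103.4 and 1462 ± 13 CPM (SD, n = 3 each), which placed the knockout at 57.2% of the wild type (log2 fold change -0.81, SE 0.023). MT-ND6 (ENSG00000198695; 14149 to 14673), the mitochondrial mRNA encoded on the minus strand, had 1924, 1572 and 1805 counts against 1514, 1445 and 1496. Its mean was 186.1 ± 8.0 and 149.5 ± 4.4 CPM, 80.3% of the wild type (log2 fold change -0.32, SE 0.037), and the groups did not overlap. A non-directional count does not separate the strands, so the MT-ND6 count can include plus-strand RNA and is not that of the ND6 mRNA alone. Whether rRNA was removed or poly(A) RNA selected is not given in the sources used here, and an rRNA level depends on that step. In bulk RNA, less of a transcript in each cell and fewer cells that hold it cannot be told apart.

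The difference in MT-RNR2 was larger than that of the mitochondrial transcripts around it. All mitochondrially encoded counts together made up 1.26% of wild-type and 1.04% of knockout gene counts, a drop of 2317 CPM, of which MT-RNR2 held 1093 CPM or 47.2%. Without MT-RNR2 the log2 ratio of the mitochondrial total was -0.19. MT-RNR1, the 12S rRNA of the small subunit, which is cut from the same precursor, fell from 1334 ± 39 to 1193 ± 6.5 CPM (log2 fold change -0.16 ± 0.023 SE; adjusted p = 7.7e-09, edgeR). The ratio of MT-RNR2 to MT-RNR1 counts, which needs no scaling between libraries, was 1.92, 1.89 and 1.94 in wild-type libraries against 1.22, 1.22 and 1.24 in knockout libraries. The knockout ratio was 0.640 of the wild-type ratio, with a gap far wider than the spread of either group. MT-RNR2 took 19.8% to 20.5% of all mitochondrial counts in wild-type libraries but 14.1% to 14.2% in knockout libraries.

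For MT-ND6 the comparison depended on the transcripts it was set against. Its ratio to MT-ND5, the neighbouring mRNA on the other strand (mitochondrial genome, 12337 to 14148), was 0.195, 0.185 and 0.195 in wild-type libraries against 0.192, 0.190 and 0.185 in knockout libraries. The groups overlapped, with a knockout to wild-type ratio of 0.984. As a share of all mitochondrial mRNA counts, MT-ND6 was at 2.17%, 2.06% and 2.16% in wild-type libraries against 2.01%, 1.93% and 1.92% in knockout libraries. These groups did not overlap, and the ratio was 0.917. As the MT-ND6 count does not separate the strands, neither measure can be read as that of the ND6 mRNA.

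**Figure D2:**
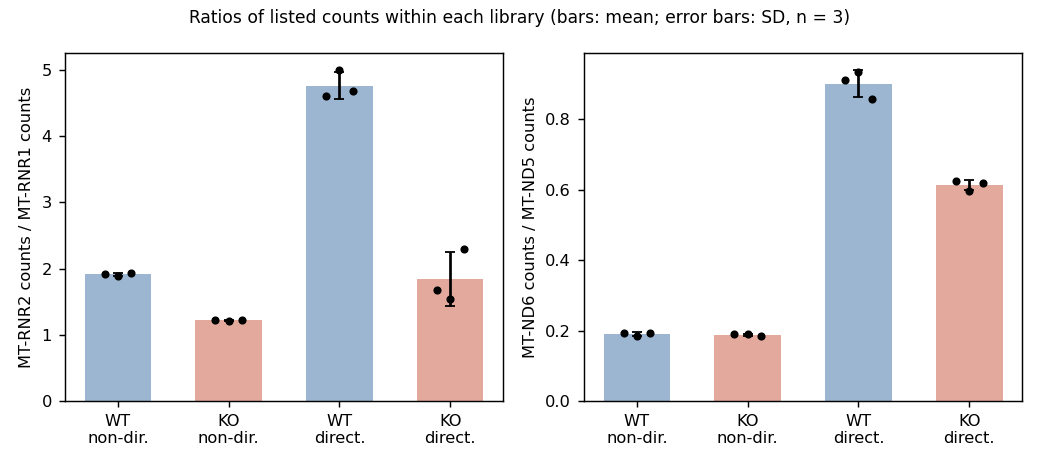
Ratio of listed counts of MT-RNR2 to MT-RNR1 (left) and of MT-ND6 to MT-ND5 (right) in each library, by genotype (WT, wild type in blue; KO, SETDB1 knockout in red) and kit; bars are means, error bars SD (n = 3) and points libraries. The MT-RNR2 ratio is lower in the knockout in both kits, while the MT-ND6 ratio overlaps in the non-directional libraries and separates in the directional ones. Directional counts cannot be read as the RNA of the named gene.

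Of the 13 other mitochondrially encoded mRNAs and rRNAs, 9 fell and 2 rose in the non-directional libraries, with a median log2 fold change of -0.16, beside 0.00 over all genes tested. Of all genes tested there, 25.9% were called lower and 25.5% higher. The 3 cytochrome c oxidase mRNAs MT-CO1, MT-CO2 and MT-CO3 fell by 0.37, 0.35 and 0.17 on the log2 scale, MT-ND5 by 0.29, MT-CYB of complex III by 0.25, MT-ATP6 of the ATP synthase by 0.23, MT-ATP8 by 0.13 and MT-ND4 by 0.07 (edgeR adjusted p from 1.9e-25 for MT-CO1 to 0.0358 for MT-ATP8). MT-ND3, the mRNA that FASTKD1 is known to limit, rose, with 1758, 1499 and 1707 counts against 2135, 2147 and 2216. Its log2 fold change was 0.32 with an SE of 0.035 (adjusted p = 4.4e-13, edgeR). FASTKD1 itself was also higher in the knockout (log2 fold change 0.30), and a link between them was not tested. In the directional tables MT-ND3 had a log2 fold change of -0.23 and did not pass the test (adjusted p = 0.0661, edgeR). Directional counts cannot be read as the RNA of the gene itself. MT-ND2 rose by 0.15 (adjusted p = 2.8e-06). MT-ND1 and MT-ND4L did not pass the test (log2 fold changes 0.01 and -0.03; adjusted p = 0.867 and 0.531). Of the 22 mitochondrial tRNAs, MT-TP was the only one high enough to be tested (log2 fold change 0.04, adjusted p = 0.773).

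**Figure D3:**
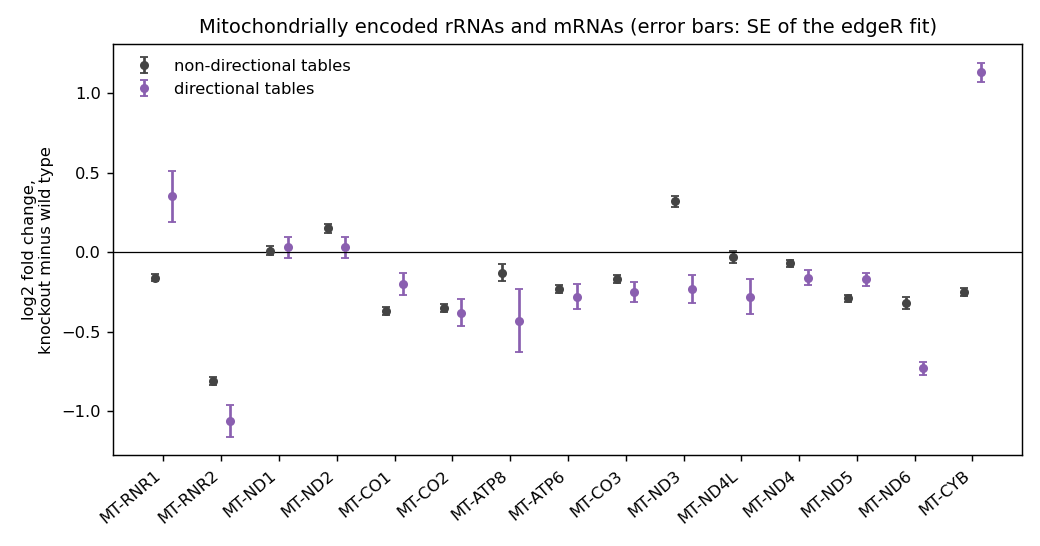
Log2 fold change (knockout minus wild type) of the 15 mitochondrially encoded rRNAs and mRNAs in the non-directional (grey) and directional (purple) tables, with the SE of the edgeR fit (3 libraries a group). MT-RNR2 is lowest in both kits, and MT-CYB, at -0.25 and 1.13, points in opposite directions. Directional counts cannot be read as the RNA of the named gene.

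The directional libraries gave a separate set of values, but in the pattern of counts from the strand opposite to each gene. Only 5.23% to 5.30% of their listed reads fell in genes, against 80.3% to 80.4% in the non-directional libraries, and 94.5% to 94.6% fell in no gene. Per 1000000 listed reads, the wild-type directional tables held 0.244% to 0.840% of the non-directional level of the family genes, 1.06% of that of MT-RNR2 and 31.6% of that of MT-ND5, but 148.4% of that of MT-ND6. Genes of the minus strand took 28.8% of mitochondrial counts in the wild-type directional libraries and 1.57% to 1.63% in the non-directional ones. A directional count of MT-ND6, MT-RNR2 or another gene can therefore not be read as the RNA of that gene. The strand setting of the counting is not given in the sources used here.

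With that limit, MT-RNR2 had 235, 280 and 234 wild-type directional counts against 124, 108 and 113 knockout counts. It fell from 412.7 ± 28 to 197.4 ± 6.6 CPM (log2 fold change -1.06 ± 0.10 SE; adjusted p = 2.5e-16, edgeR), lower in 3 of 3 knockout libraries. MT-ND6 had 2643, 2887 and 2144 counts against 1610, 1505 and 1333. It fell from 4207 ± 164.8 to 2543 ± 132.4 CPM (log2 fold change -0.73 ± 0.042 SE; adjusted p = 3.1e-27, edgeR). Counts at both genes were thus called lower, where 16.2% of the 4745 genes tested were called, 8.49% lower and 7.67% higher. Such counts had the pattern of the opposite strand, so they do not test the 16S rRNA or the ND6 mRNA themselves. The MT-RNR2 to MT-RNR1 ratio was 4.61, 5.0 and 4.68 in wild-type libraries against 1.68, 1.54 and 2.31 in knockout libraries, and the MT-ND6 to MT-ND5 ratio was 0.859 to 0.934 and 0.597 to 0.625. Neither pair of groups overlapped. MT-RNR1 itself had a log2 fold change of 0.35 (SE 0.16; adjusted p = 0.12), in the opposite direction to the non-directional value.

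Among the 13 other mitochondrial rRNAs and mRNAs, 6 fell and 1 rose in the directional tables (median log2 fold change -0.20). The one that rose was MT-CYB, with 440, 430 and 386 counts against 968, 932 and 741 (log2 fold change 1.13 ± 0.061 SE; adjusted p = 4.5e-29, edgeR), while it fell in the non-directional libraries. The difference between kits was not tested. Of the family itself, TBRG4 was the only gene with enough directional counts, at 9, 11 and 12 against 5, 15 and 16, and it did not pass the test (log2 fold change 0.23 ± 0.37 SE; adjusted p = 0.75, edgeR). Without knockout replicate 3 its log2 fold change was -0.06. The other family genes had 0 to 6 counts in each directional library.

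MDH1B aside, which overlaps FASTKD2 and was too low to test, the tested genes around FASTKD2 showed no difference of that size. Within 1000000 bases on either side, 62 genes are annotated and 12 were tested, of which 4 rose and 3 fell, with a median log2 fold change of -0.01. Over all genes tested, 25.5% were called higher and 25.9% lower, so nothing particular to this region is read from that count. The extremes were NRP2, at 50.1% of its wild-type level, and ZDBF2. The nearest tested gene, ADAM23, a cell-surface protein of the ADAM family 144227 bases before FASTKD2, had a log2 fold change of -0.16 (edgeR adjusted p = 0.0489). ZDBF2 and GPR1, at 450919 and 547310 bases, rose by 0.46 (adjusted p = 4.1e-09) and 0.40 (adjusted p = 0.0372). On the other side KLF7 and CREB1, both transcription factors, and METTL21A, a lysine methyltransferase, did not pass the test, with log2 fold changes of -0.05, -0.10 and -0.13 (adjusted p = 0.554, 0.114 and 0.0954). The number called lower ranged from 1 to 5 when 1 library was left out, reaching 5 without wild-type replicate 2 and 1 without wild-type replicate 3, knockout replicate 1 or knockout replicate 2.

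**Figure D4:**
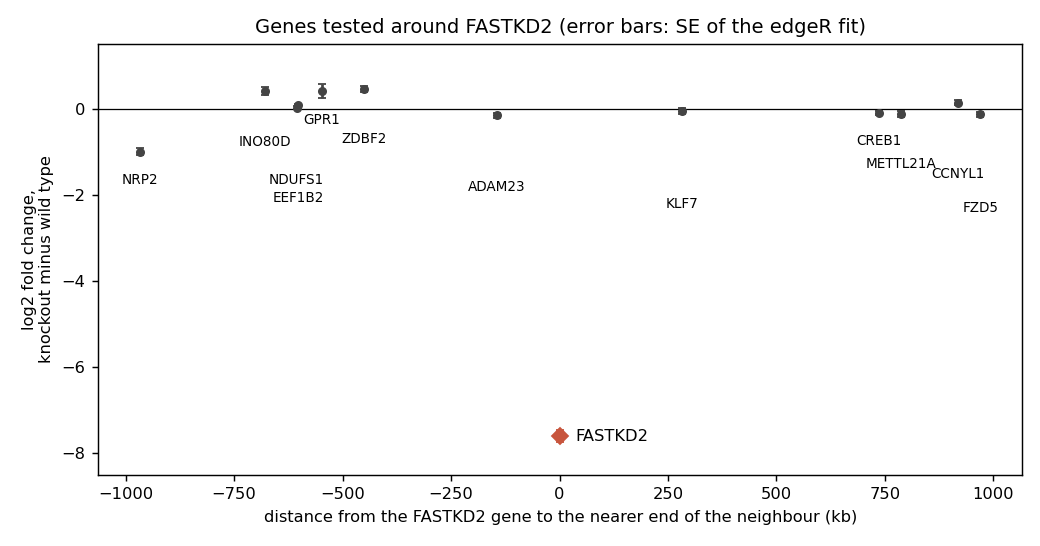
Log2 fold change (knockout minus wild type, non-directional libraries) of the 12 genes tested within 1000000 bases of FASTKD2 against their distance from it, with the SE of the edgeR fit. FASTKD2 (red diamond, -7.59) lies far below its neighbours, of which NRP2, at 50.1% of the wild-type level, is lowest and ZDBF2 (0.46) highest.

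The 5 genes whose profile of log2 CPM over the 6 non-directional libraries was closest to that of FASTKD2 by Euclidean distance were IFI16 (distance 2.35), HCP5 (2.44), SPOCK1 (2.45), SPARC (3.30) and GALNT14 (3.43). They lie on chromosomes 1, 6, 5, 5 and 2. IFI16, a sensor of DNA, went from 596, 521 and 564 counts to 0, 1 and 1, and GALNT14, a glycosyltransferase of chromosome 2 (30910467 to 31155202), from 344, 273 and 292 to 0, 0 and 2. SPARC and SPOCK1, related extracellular matrix proteins, and the non-coding HCP5 kept 4 to 26 counts in the knockout libraries. The likeness was chosen on these same values and is a description.

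The partners of FASTKD2 on the 16S rRNA were measured next. RPUSD3, RPUSD4 and TRUB2 are pseudouridine synthases that act with NGRN, RCC1L and FASTKD2 in one module. Of these 5 genes, 2 rose and 1 fell, with a median log2 fold change of 0.04. RPUSD3 rose from 78.7 ± 1.4 to 90.5 ± 2.5 CPM and TRUB2 from 106.2 ± 4.5 to 122.3 ± 3.8 CPM (log2 fold change 0.20 each; edgeR adjusted p = 0.000103 and 2.7e-05). RCC1L fell by 0.10 (adjusted p = 0.0495), a call lost under most alternatives. RPUSD4 and NGRN did not pass (log2 fold changes 0.04 and -0.08; adjusted p = 0.462 and 0.268).

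Of 30 genes of mitochondrial transcription and RNA processing, 8 rose, 4 fell and 18 did not pass, with a median of 0.03. ELAC2, which cuts the 3′ ends of mitochondrial tRNAs, fell from 287.7 ± 8.2 to 227.7 ± 6.7 CPM (log2 fold change -0.34 ± 0.032 SE; adjusted p = 2.2e-15, edgeR), and TFB2M, a factor for transcription initiation, fell by 0.41. POLRMT, the mitochondrial RNA polymerase, rose from 187.6 ± 7.4 to 241.9 ± 7.4 CPM (log2 fold change 0.37; adjusted p = 7.9e-16), and TEFM, its elongation factor, rose by 0.41. Of 11 assembly factors of the large subunit, 2 rose and 2 fell (median 0.04). GTPBP6 and the helicase DHX30 fell by 0.27 and 0.18, and the GTPase NOA1 and MPV17L2 had log2 fold changes of 0.33 and 0.19.

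The mitoribosome lists were drawn by gene symbol (MRPL, and MRPS with DAP3), which does not settle whether each protein belongs to that subunit. Of 49 genes listed as large subunit, 13 rose, 8 fell and 28 did not pass (median 0.01). MRPL24 fell most, from 107.4 ± 6.3 to 52.6 ± 3.1 CPM (log2 fold change -1.03; edgeR adjusted p = 1.5e-31), followed by MRPL55 (-0.36), and MRPL50 and MRPL15 rose by 0.54 and 0.37. Of 30 genes listed as small subunit, 29 were tested, of which 10 rose and 8 fell (median -0.02). MRPS14 and MRPS21 were at -0.56 and -0.50, and MRPS36 and MRPS35 at 0.45 and 0.36. Several of these genes lie in segments whose genes moved as a block. On chromosome 1 beyond 140000000, 91.5% of 579 tested genes had values below 0 (median -0.47), and on chromosome 9 from 70000000 to 120000000, 86.5% of 171 were above 0 (median 0.41). MRPL24, MRPL55, MRPS14, MRPS21, TFB2M, IFI16 and SETDB1 lie in the first and MRPL50 and PSAT1 in the second, and without both segments 12 large-subunit genes rose and 5 fell, and 10 small-subunit genes rose and 5 fell. No FASTK family gene lies in either segment.

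Of 38 genes listed as nuclear complex I subunits, 36 were tested, of which 8 rose and 6 fell (median 0.04). NDUFA4 (log2 fold change 0.16) stood in this list and in that of complex IV, and was counted as a rise in each. NDUFA9 fell from 22.5 ± 1.2 to 17.5 ± 2.1 CPM (log2 fold change -0.37; edgeR adjusted p = 0.000329), and NDUFB7 and NDUFA6 rose by 0.37 and 0.26. Of 11 nuclear subunits of complex IV, 6 rose and 1 fell (median 0.10), with COX5B and COX7B at 0.21 and 0.18 and COX5A at -0.08. Of 16 genes of the mitochondrial stress response tested of 18, 5 rose and 4 fell (median 0.03). CHAC1, a glutathione-degrading enzyme, rose from 14.7 ± 1.9 to 26.8 ± 3.0 CPM (log2 fold change 0.87; adjusted p = 1.6e-13) and PSAT1, of serine synthesis, by 0.41, and ATF5, a transcription factor, and HSPE1, a chaperonin, fell by 0.47 and 0.23. Each of these shares is to be read beside the 25.5% higher and 25.9% lower over all genes tested.

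**Figure D5:**
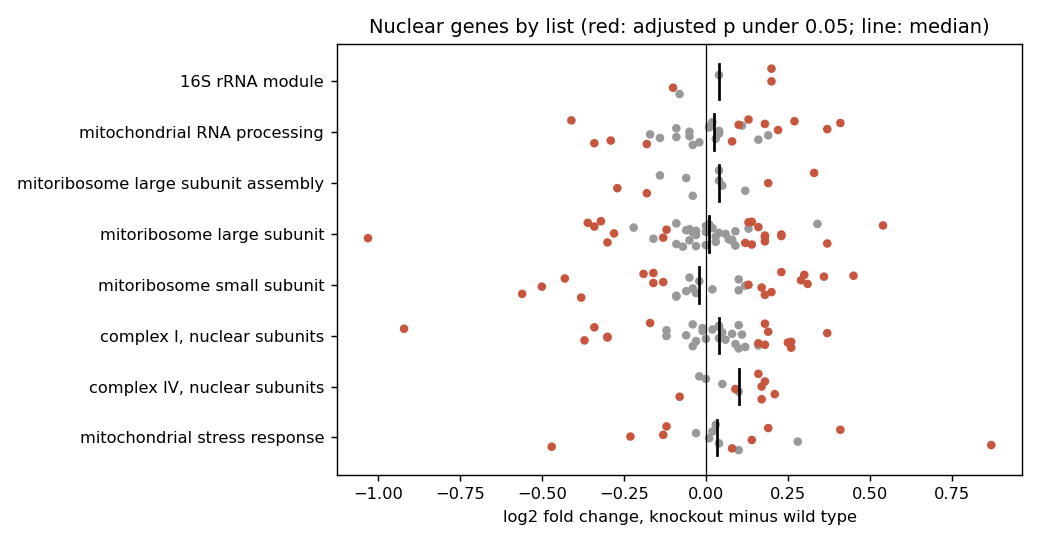
Log2 fold change (knockout minus wild type, non-directional libraries) of every tested gene in 8 lists of nuclear genes around mitochondrial RNA and translation; each point is a gene, red where the edgeR adjusted p was under 0.05, and black lines are medians. The medians lie between -0.02 and 0.10, with MRPL24 (-1.03) and CHAC1 (0.87) at the ends.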

How the data were processed

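The authors deposited raw read counts per gene for 12 libraries, in the layout of HTSeq, and for the 6 non-directional libraries a normalized signal per long L1 element. The submitters' processing notes name Trim Galore 0.4.4, STAR 2.6.0a, SAMtools 1.9, Picard 2.23.8, HTSeq 0.11.1, DESeq2 3.14, bedtools and hg38. The publication supplied with the series describes other samples and was not used for methods. All 58735 gene IDs matched the GENCODE annotation of GRCh38.

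Each kit was fitted alone: filterByExpr (minimum count 10, minimum total 15), TMM scaling and the quasi-likelihood test in edgeR 4.0.16 (R 4.3.3). P-values were adjusted by Benjamini-Hochberg over all genes tested, with a threshold of 0.05. An SE was derived from the fold change and its F statistic and is approximate. The scripts were tested on simulated data. Reads outside genes were left out of library sizes (80.3% to 80.4% of listed reads lay in genes in non-directional libraries and 5.23% to 5.30% in directional ones). The floor of 3 counts was 0.294 to 0.336 CPM for non-directional and 4.43 to 5.64 CPM for directional libraries. Reads are not independent molecules, so floors and intervals cover counting error only. Alternatives were DESeq2 size factors and the DESeq2 1.42.0 Wald test, nuclear-gene scaling, no filter, a replicate block and leaving out each library.

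L1 values were whole multiples of 1 step (100% within 0.001 in each library), so reads were recovered, and an edgeR count test, added after seeing the data, called 281 of 816 loci tested (245 higher). Knockout libraries of the non-directional kit differed by less than the sampling noise (chi-square per degree of freedom 0.956 to 0.991). No pair in that group differed, and they were kept as 3 samples, while wild-type replicate 2 differed from replicates 1 and 3 (1.82 and 2.0).

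The members and lists were chosen with earlier results of these data known. Named genes were the 8 members, SETDB1, the mitochondrial genes, the 16S module, the 2 called genes with the largest rise and fall of each other nuclear list, the 3 nearest tested genes on each side of FASTKD2 and the 5 genes with the closest profile. In the text, segments of chromosomes 1 and 9 and MDH1B were picked after values were seen. 1 gene that this rule would name is not reported here.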

Additional observations from a re-analysis of the deposited data

How the results depend on the processing

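Of the values recomputed under the alternatives, 400 kept their direction and their side of the threshold or stayed within the limits set for a count, 27 moved and 1 reversed. The non-directional values of the 8 genes ranged over the alternatives from -7.71 to -7.40 for FASTKD2 and from -0.83 to -0.78 for MT-RNR2, and the directional values from -1.11 to -1.03 for MT-RNR2 and from -0.77 to -0.69 for MT-ND6. The directional TBRG4 value reversed to -0.06 without knockout replicate 3 (edgeR adjusted p = 0.961), with a range of -0.06 to 0.64 over left-out libraries. With the DESeq2 Wald test, 186 genes were called higher and 185 lower in the directional libraries in place of 364 and 403. That test called 4 genes of mitochondrial RNA processing, 1 large-subunit assembly factor and 7 genes of the large-subunit list higher, and 0 of the 16S module lower. RCC1L, the gene of the 16S module called lower, was also lost (0 called) with nuclear-gene scaling and with no filter. Leaving out 1 library gave 0 to 1 lower in the 16S module, 5 to 7 higher in RNA processing, 0 to 1 lower in complex IV, 3 to 5 higher in the stress list, 8 to 15 higher in the large subunit and 1 to 5 lower around FASTKD2. Of these 6 fits, RCC1L was still called only in the one without wild-type replicate 3. The low ends came without wild-type replicates 1 or 2 or knockout replicate 3 (5 in RNA processing), without wild-type replicate 1 (8 in the large subunit), without knockout replicate 2 (0 in complex IV) and without knockout replicate 1 (3 in the stress list). Without the segments of chromosomes 1 and 9, 5 genes of each mitoribosome subunit list were lower. As a share of mitochondrial mRNAs alone, the MT-ND6 ratio of knockout to wild type was 0.917, and as a share of all mitochondrial counts 0.983. The causes were not tested.

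Libraries share replicate numbers across genotypes by title only, and their deviations were uncorrelated (-0.0249 to -0.00124 for the non-directional kit, -0.0264 to 0.014 for the directional kit). With the replicate block, FASTKD2 was at -7.59 and MT-RNR2 at -0.80 with the non-directional kit and -1.06 with the directional kit, 3502 genes were higher and 3572 lower, and the 16S module had 0 lower. The block changed no other count by over 1.5 times. Few directional reads fell in genes, and of the family genes TBRG4 alone had enough of them to be tested there.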

Other observations

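No long L1 element of the deposited tables lies within a FASTK family gene. The nearest to FASTKD2 is an L1PA7 copy 101699 bases away, with 2, 0 and 0 wild-type reads against 0, 0 and 0 knockout reads, as recovered from the signal. The one copy within 100000 bases of a family gene is an L1PA4 element 70815 bases from FASTKD1, with 3, 0 and 1 against 0, 3 and 4 reads, too few to compare.

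The directional tables list counts at tRNA genes of the minus strand of the mitochondrial genome, where the non-directional tables list few or none except at MT-TP. Directional counts had the pattern of reads from the opposite strand, so these cannot be read as the tRNAs themselves. The MT-TY gene, of the tyrosine tRNA, had 145, 177 and 152 wild-type counts against 116, 100 and 86 knockout counts (log2 fold change -0.59, SE 0.11; edgeR adjusted p = 1.7e-05). The MT-TS1 gene, of a serine tRNA, had 170, 166 and 129 against 104, 104 and 96 (log2 fold change -0.55, adjusted p = 5.2e-05). The listed count at MT-TQ, of the glutamine tRNA, went from 16, 15 and 8 to 24, 27 and 30 (log2 fold change 1.11, adjusted p = 0.00151). MT-TP, with 221, 267 and 182 against 203, 172 and 177, and MT-TE, with 24, 33 and 20 against 29, 26 and 29, did not pass the test (adjusted p = 0.0753 and 0.661).

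The 13 MT-RNR2-like nuclear copies had at most 4 counts in any non-directional library, and neither they nor the 27 MT-ND6 pseudogenes were high enough to be tested.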
